A study of Homo sapiens with 6 samples.

Results

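The levels of both mature arms of miR-210, the 3p arm and the 5p arm, were examined in U2OS cells, an established human osteosarcoma line. They are the 2 rows of 1155 in the deposited miRNA table whose names are hsa-miR-210-3p and hsa-miR-210-5p. Small RNA was sequenced in 3 libraries with the genotype label LINC00673 and 3 with the label NC. Per the design text of the series, stable shRNA transfection against the long non-coding RNA LINC00673 distinguished one set of U2OS cells from wild-type cells, so libraries labelled LINC00673 were taken for the shRNA cells and those labelled NC for their comparison. The labels do not say what the abbreviation NC stands for, whether its cells carried a construct, or whether each line came from 1 clone. Sample titles of the LINC00673 and the NC libraries begin alike, with Lv, and the labels do not say whether NC cells are the wild-type cells of the design text. They name no change of oxygen supply or other treatment for either group. Nothing in them says that the replicates were separate cultures, so the tests measure the spread between these libraries, which may be technical.

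MicroRNAs are cut from a hairpin precursor, and usually one of its arms is loaded into Argonaute and kept while the other is degraded. The 3p arm of miR-210 is the kept one in most human cells. It is best known as a miRNA that hypoxia-inducible factors switch on when oxygen is low, and it represses transcripts such as that of ISCU, which encodes an iron-sulfur cluster scaffold protein of mitochondria, and that of EFNA3, an ephrin ligand.

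The mature sequences are shown because the 2 arms are counted by their sequence (RefSeq, GRCh38.p14, capitals mark the seed, bases 2 to 8 of each).
miR-210-3p: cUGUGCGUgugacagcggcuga
miR-210-5p: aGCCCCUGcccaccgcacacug
The hairpin of MIR210 is shown to place both arms, which are in capitals here.
MIR210: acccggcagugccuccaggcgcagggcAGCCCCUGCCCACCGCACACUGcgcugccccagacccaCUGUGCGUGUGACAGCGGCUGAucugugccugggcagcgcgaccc
The hairpin lies on the minus strand at chr11:568089-568198 (GRCh38), the 3p arm at chr11:568112-568133 and the 5p arm at chr11:568150-568171. All 4 transcripts of its non-coding host gene MIR210HG span it in GENCODE release 29, and 0 of their exons overlap it, so it is intronic. No other annotated miRNA gene lies within 50000 bp (0 found). Neither seed occurs in another human mature miRNA of RefSeq (0 for each arm). Both arms are 22 bases long, and both are rich in G and C, at 63.6% in the 3p and 72.7% in the 5p arm, against a median of 50% over the 1017 miRNAs of the table with a RefSeq sequence. In the structure of lowest energy (RNAfold, -59.5 kcal/mol), 16 base pairs join the 2 arms, 11 of them between G and C. Of the first 4 bases of each arm, 3 are paired in the 3p arm, 1 of these in a G-C pair, and 4 in the 5p arm, 3 of them in G-C pairs.

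Levels are given as CPM, read counts scaled to a common library total, and every value above 0 was a whole multiple of 1 read. The totals behind the CPM scale came to 380298, 742349 and 762663 reads in LINC00673 replicates 1 to 3, and to 483322, 311448 and 295567 reads in NC replicates 1 to 3, so the LINC00673 libraries were on average deeper (exact permutation p = 0.2, two-sided). Differences between groups were tested with limma on log2(CPM + 1) over the 810 miRNAs that averaged 1 CPM or more, with p-values adjusted after Benjamini and Hochberg and called under 0.05. LINC00673 itself is not a miRNA and is not analysed here, so the knockdown was not checked.

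The 3p arm was higher in every LINC00673 library than in every NC library, but the difference did not pass the test over all miRNAs. Its level was 205.1, 218.23 and 211.1 CPM in LINC00673 replicates 1, 2 and 3, and 165.52, 176.59 and 128.57 CPM in NC replicates 1, 2 and 3. The groups did not overlap, the closest libraries being LINC00673 replicate 1 and NC replicate 2, and NC replicate 3 was the lowest of all. The LINC00673 libraries averaged 211 ± 6.57 CPM and the NC libraries 157 ± 25.1 CPM (SD, n = 3 each), a ratio of means of 1.35. The log2 difference was 0.44 with a standard error of 0.24 and a 95% interval of -0.05 to 0.93 (limma adjusted p = 0.509). On the fold scale this interval reached from 0.965 to 1.91, so it held an equal level and ended short of 2-fold. The recovered reads gave a log2 difference of 0.53 in edgeR's quasi-likelihood test (adjusted p = 0.324) and of 0.41 in DESeq2 (adjusted p = 0.448). An exact two-sided permutation test of the mean CPM gave p = 0.1, the smallest that 3 against 3 libraries allow. Without NC replicate 3, the lowest library and one of the pair of NC replicates (1 and 3) that differed most over all miRNAs, the log2 difference was 0.30 (limma adjusted p = 0.494).

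**Figure D1:**
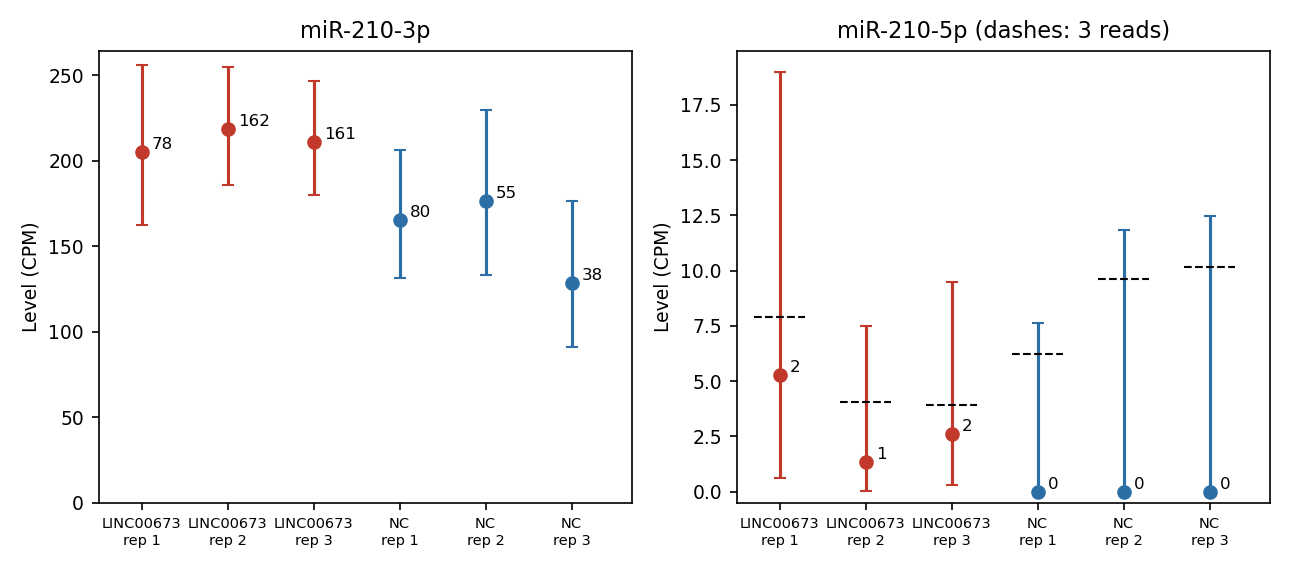
Level in CPM of miR-210-3p (left) and miR-210-5p (right) in each library, with the reads behind each point beside it. Bars are exact 95% Poisson intervals, and dashes mark the level of 3 reads. The 3 LINC00673 points of the 3p arm lie at 205.1 CPM or above and the 3 NC points at 176.59 CPM or below. The intervals of LINC00673 replicates 2 and 3 start above the end of the interval of NC replicate 3, and those of all other pairs across the groups overlap. The 5p arm has at most 2 reads in any library.

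Separation of this kind was common. The lowest LINC00673 library exceeded the highest NC library in 7.78% of the 810 miRNAs tested, and the reverse order held in 7.65%. In limma, 0.247% of the miRNAs passed as higher and 0% as lower. The median log2 difference over all tested miRNAs was 0.06, and 221 of them had a higher one than miR-210-3p. Among the 60 miRNAs within 2-fold of its mean level, 17 had a higher log2 difference, the median was 0.13, and 13 were separated in the same direction.

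The values of the 3p arm rested on 78, 162 and 161 reads in LINC00673 replicates 1, 2 and 3, and on 80, 55 and 38 reads in NC replicates 1, 2 and 3. Counting alone would give a standard deviation of 19.4 CPM among the LINC00673 and 21.4 CPM among the NC libraries, where 6.57 CPM was measured in LINC00673 and 25.1 CPM in NC libraries. On the log2 scale the LINC00673 libraries spread by 0.04, against a median of 0.16 among the 60 miRNAs of similar level, of which 1 spread less. The NC libraries spread by 0.24, against a median of 0.33, with 41 of the 60 spreading more. The exact 95% Poisson intervals of neighbouring libraries overlapped, with 162 to 256 CPM in LINC00673 replicate 1 and 133 to 229.9 CPM in NC replicate 2. With the reads of each group summed, 401 LINC00673 against 173 NC reads gave 213 and 159 CPM, a ratio of 1.34 with an exact 95% interval of 1.12 to 1.61. That interval covers counting error only, and leaves out the spread between libraries that the limma interval includes.

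**Figure D2:**
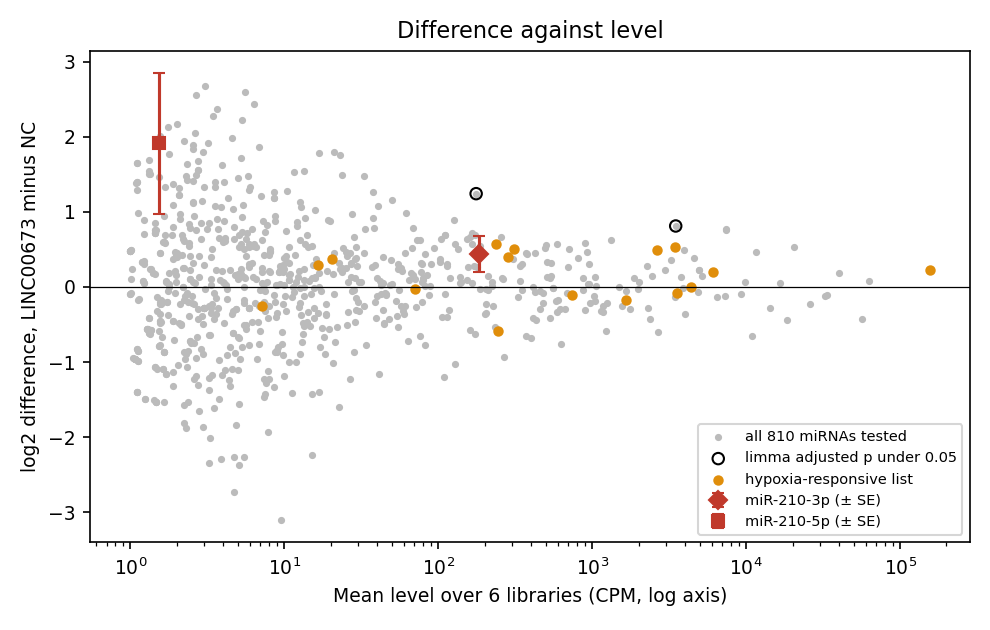
Log2 difference, LINC00673 minus NC, against the mean level in CPM (log axis) for the 810 miRNAs tested, 1 point each. Red marks are both arms of miR-210 with their standard errors (0.44 ± 0.24 for 3p and 1.91 ± 0.94 for 5p), orange points the hypoxia-responsive list, and open circles the miRNAs past the limma threshold, neither of which is miR-210.

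By its mean over all 6 libraries, miR-210-3p ranked 131 of 1155 miRNAs at 184 CPM. Directly above stood miR-382-5p, at 183 ± 30.4 CPM in LINC00673 libraries, against 188 ± 42.3 CPM in NC, and directly below miR-92b-5p, at 194 ± 50.1 CPM in LINC00673 libraries and at 163 ± 46.6 CPM in NC ones (SD, n = 3 each). These neighbours differ from miR-210-3p by less than the spread of their own replicates, and adapter ligation prefers some sequences, so the order among them is not settled. Both arms together took 0.0302% of the listed CPM in LINC00673 libraries, against 0.0226% in NC, as group means.

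The 5p arm stood at the limit of detection, and its 5 reads all came from the LINC00673 libraries. Its level was 5.26, 1.35 and 2.62 CPM in LINC00673 replicates 1, 2 and 3, which is 2, 1 and 2 reads, and it was listed at 0 in all 3 NC libraries. No library reached 3 reads, a floor that stands for 3.93 to 7.89 CPM in the LINC00673 libraries and 6.21 to 10.1 CPM in the NC libraries. Every LINC00673 value therefore lay under the floor of its own library and of NC replicates 1, 2 and 3, so no fold is given, and the fitted log2 difference of the arm is no measure of one. A count of 0 allowed up to 7.63, 11.8 and 12.5 CPM in NC replicates 1, 2 and 3 (upper ends of the exact 95% Poisson intervals).

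The arm entered the test with a mean of 1.54 CPM, through the LINC00673 libraries alone, so a positive difference was the only kind it could show. It did not pass (limma log2 difference 1.91, standard error 0.94, adjusted p = 0.433), and edgeR gave an adjusted p of 0.489, while DESeq2 gave none. The fitted difference reflects the pseudocount, being 2.69 with 0.5 CPM and 0.66 with 5 CPM in place of 1. The 3 LINC00673 libraries together were deeper than the 3 NC libraries, at 1885310 against 1090337 reads, though LINC00673 replicate 1, with 2 reads of the arm, was shallower than NC replicate 1, with 0. At the LINC00673 rate of 2.65 CPM over all reads, the NC libraries together would hold 2.89 reads of the arm, under the floor of 3. A lower level of the 5p arm in NC than in LINC00673 libraries was thus not detectable at this depth. Of all rows, 10 were listed at 0 in the 3 NC libraries and above 0 in the 3 LINC00673 libraries, and 0 the other way round, and the part of depth in this was not tested. One of the 10 was miR-874-5p, next to miR-210-5p in the order of levels at rank 722 and with the same values in all 6 libraries, while miR-4719 stood above both at rank 721 with 4 reads in all.

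The 3p arm dominated the hairpin in every library. The 5p share of the reads of both arms was 2.50%, 0.613% and 1.23% in LINC00673 replicates 1, 2 and 3, from 80, 163 and 163 reads, and 0 of 80, 55 and 38 reads in NC replicates 1, 2 and 3. A count of 0 allowed a share of up to 3.75%, 5.45% and 7.89% in those 3 NC libraries, taking the floor of 3 reads. The measured shares of the LINC00673 libraries all lay below these limits, so a lower share in NC than in LINC00673 libraries was not detectable at this depth. Summed over libraries, the share was 5 of 406 reads or 1.23% in LINC00673 (exact 95% binomial interval 0.401% to 2.85%) and 0 of 173 reads in NC (up to 2.11%). At the LINC00673 share, the NC libraries would hold 2.13 reads of the 5p arm. The mean share was 1.45 ± 0.962% in LINC00673 libraries, against 0% in NC (SD, n = 3 each). A two-sided exact permutation test gave p = 0.1, the smallest possible. With 0 reads of the 5p arm in every NC library, only a higher LINC00673 share could be shown, so this p adds nothing.

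**Figure D3:**
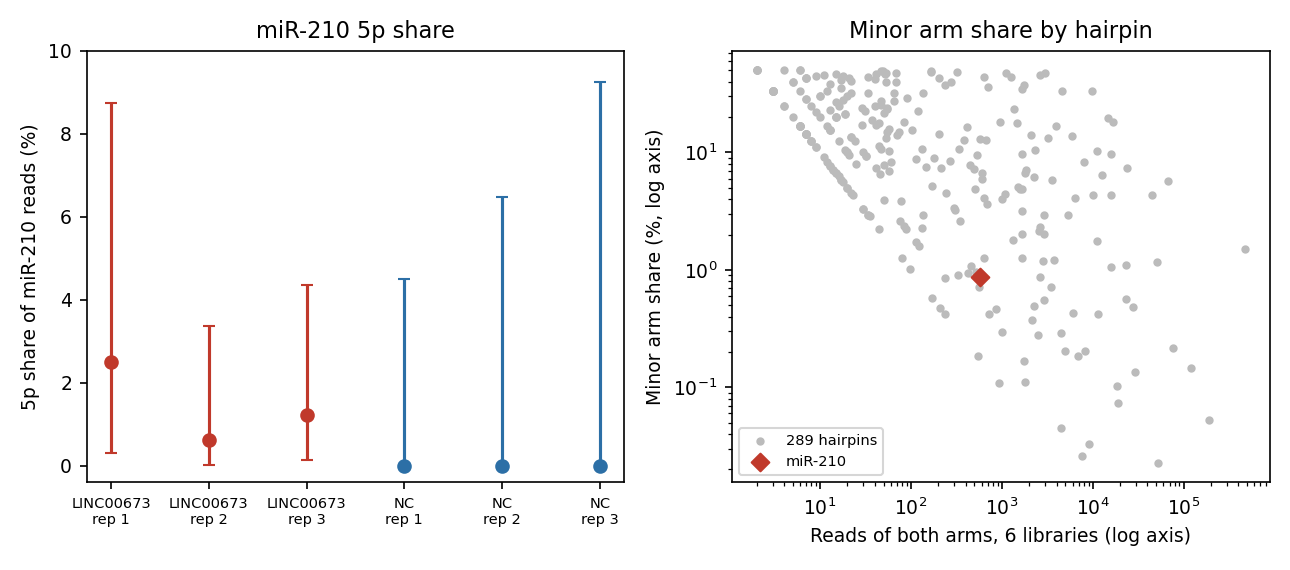
Left, 5p share in percent of the miR-210 reads in each library, with exact 95% binomial intervals, which overlap between all 6 libraries. Right, share of the less abundant arm against the reads of both arms for the 289 hairpins with both arms listed (log axes), with miR-210 in red at 0.864% of 579 reads.

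Expressed as a ratio, 3p reads outnumbered 5p reads 39.0-fold, 162-fold and 80.5-fold in LINC00673 replicates 1, 2 and 3. In the NC libraries only lower bounds could be set against 3 reads, at least 26.7-fold, 18.3-fold and 12.7-fold in replicates 1, 2 and 3. The LINC00673 ratios lie above all of these bounds, so the bounds do not show which group had the higher ratio. In the limma fit over 184 hairpins, the log2 ratio of 3p to 5p, with 1 CPM added to each arm, averaged 5.82 ± 0.75 in LINC00673 and 7.29 ± 0.24 in NC libraries (SD, n = 3 each). The difference of -1.47 (standard error 0.45) did not pass (limma adjusted p = 0.273), and its size depended on the added CPM, being -2.24 with 0.5 CPM and -0.23 with 5 CPM. With all NC values of the 5p arm at 0, the NC ratios are set by the 3p level and the added CPM alone. The groups were separated in this ratio with LINC00673 lower, as in 6.52% of the 184 hairpins. No hairpin passed the limma fit (0, with 17 at an unadjusted p under 0.05), nor edgeR's interaction of arm and group (0, with 14 unadjusted).

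Such asymmetry was not rare among hairpins. Over all 6 libraries the 5p arm held 0.864% of 579 miR-210 reads (exact 95% binomial interval 0.281% to 2.00%). Only hairpins with both arms listed under matching names were compared, which leaves out those with 1 arm listed. Of the 93 such hairpins with at least as many reads, miR-210 included, 29 had a smaller share of their less abundant arm. The median was 2.94%. Among the 34 other such hairpins within 2-fold of the reads of miR-210, 6 had a smaller share, and the median was 4.28%.

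Besides miR-210, whose arms did not pass limma, a list of miRNAs reported to respond to oxygen in other cell systems was examined. None of its tested members passed limma either, and they lay on both sides of 0. The list had 18 members besides miR-210, of which 16 were tested. In limma, 0 of the 16 passed (0.247% of all miRNAs as higher and 0% as lower). At an unadjusted limma p under 0.05 stood 4 of the 16, with miR-23a-3p, miR-26a-5p and miR-181b-5p higher and miR-199a-5p lower. Of all 810 miRNAs tested, 54 were higher and 36 lower at that p. In edgeR 1 passed, miR-26a-5p, against 1.85% of all miRNAs as higher and 0.864% as lower. In DESeq2 0 passed and miR-181c-5p had no adjusted p, against 0.929% as higher and 2.17% as lower. The log2 difference was above 0 for 9 of the 16, with a median of 0.21, beside 53.2% above 0 and a median of 0.06 over all miRNAs tested. No direction of response to oxygen was set for the members, so their signs are a description and do not test such a response. The groups were separated with LINC00673 higher in 4 members and lower in 1, beside 7.78% and 7.65% over all miRNAs tested.

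The most abundant member was miR-21-5p, an oncogenic miRNA found in most cell types, at 166620 ± 9940 CPM in LINC00673 libraries, against 144959 ± 33294 CPM in NC (SD, n = 3 each, log2 difference 0.22, limma adjusted p = 0.659). Next came miR-26b-5p at 6469 ± 109.7 CPM in LINC00673 libraries, against 5662 ± 715 CPM in NC, and miR-103a-3p, whose targets include Dicer, at 4324 ± 68.9 CPM in LINC00673 libraries, against 4383 ± 915 CPM in NC. Both sets of libraries overlapped for these 3 miRNAs. The level of miR-24-3p was 3483 ± 322 CPM in LINC00673 libraries, against 3674 ± 328 CPM in NC, also overlapping.

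In contrast, miR-26a-5p, which targets the histone methyltransferase transcript EZH2, and miR-23a-3p were separated between groups, as miR-210-3p was. The level of miR-26a-5p was 3379, 4717 and 4128 CPM in LINC00673 replicates 1, 2 and 3, and 2123, 3124 and 3309 CPM in NC replicates 1, 2 and 3 (log2 difference 0.53). Its adjusted p was 0.195 in limma, 0.0338 in edgeR and 0.115 in DESeq2. The level of miR-23a-3p was 2793, 3238 and 3185 CPM in LINC00673 replicates 1, 2 and 3, and 2046, 1978 and 2524 CPM in NC replicates 1, 2 and 3 (log2 difference 0.50). Its adjusted p was 0.182 in limma, 0.0516 in edgeR and 0.0665 in DESeq2. The other 2 members separated with LINC00673 higher were miR-23b-3p and miR-181b-5p, and the 1 lower was miR-199a-5p, known to target the HIF1A transcript, at 194 ± 10.7 CPM in LINC00673 libraries, against 293 ± 29.5 CPM in NC (-0.59 on the log2 scale, limma adjusted p = 0.252). These 3 were named after their values were seen. The 2 members not tested, miR-373-3p and miR-424-5p, averaged under 1 CPM. Without NC replicate 3, miR-23a-3p and miR-181a-5p passed limma (adjusted p = 0.0331 and 0.0274), in a fit that passed 28 of all 801 miRNAs tested.

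**Figure D4:**
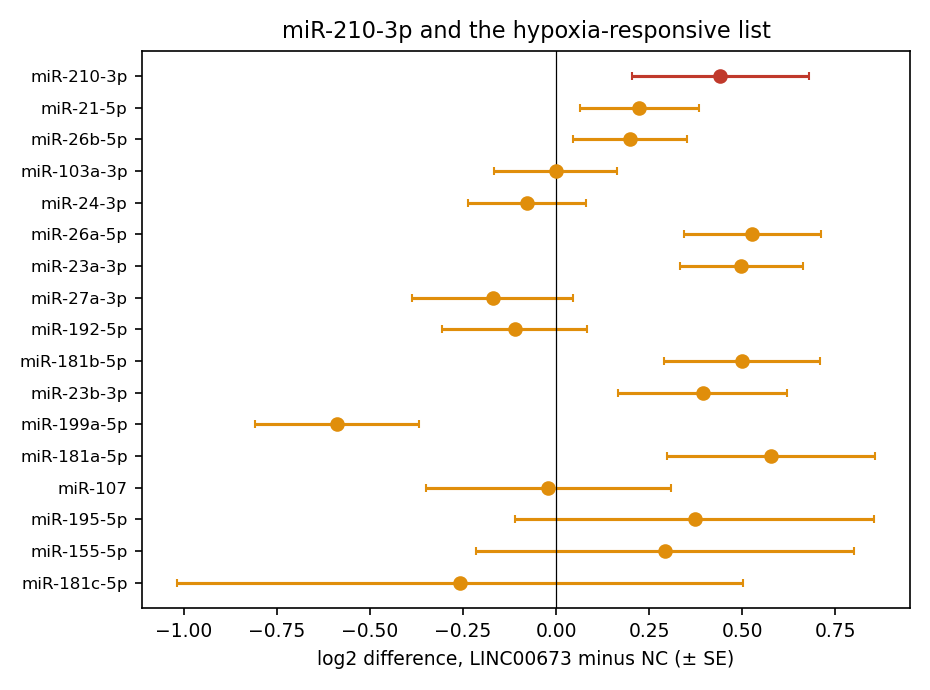
Log2 difference, LINC00673 minus NC, with standard errors for miR-210-3p (top, red) and the 16 tested members of the hypoxia-responsive list (orange), ordered by falling mean level. The value of miR-210-3p, 0.44, lies between those of miR-23b-3p (0.39) and miR-23a-3p (0.50), and 7 members lie below 0.

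The miRNAs whose levels followed miR-210-3p most closely over the 6 libraries, among 361 others with a mean of at least 10 CPM, were miR-379-5p, miR-409-3p, miR-345-5p, miR-193b-5p and miR-323b-3p. Pearson's r of log2(CPM + 1) was 0.94, 0.94, 0.94, 0.93 and 0.91 in that order. This is a description of 6 points that share the group difference, the libraries and their depth, and the 5 were picked for their r. With each group centred on its own mean, r was 0.87, 0.77, 0.77, 0.86 and 0.97 in the same order. NC replicate 3 was the lowest library for all 5, as it was for miR-210-3p. The level of miR-379-5p, the closest, was 165.66, 245.17 and 203.24 CPM in LINC00673 replicates 1, 2 and 3, and 157.25, 138.06 and 84.58 CPM in NC replicates 1, 2 and 3 (log2 difference 0.72, limma adjusted p = 0.255).

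For a check of the cell label, 10 miRNAs typical of mesenchymal cells, miR-21-5p and miR-199a-5p among them, were all listed, with a summed level of 204206 to 230378 CPM in LINC00673 libraries, against 154088 to 224995 CPM in NC. Most of this sum was miR-21-5p, which is found in most cell types. Low members were miR-143-3p at 33.6 ± 14.0 CPM in LINC00673 libraries, against 25.8 ± 2.74 CPM in NC, miR-214-3p at 8.40 ± 0.895 CPM, against 6.41 ± 3.13 CPM in NC, and miR-145-5p at 2.65 ± 2.63 CPM, against 2.20 ± 1.90 CPM in NC (SD, n = 3 each). In 3 epithelial miRNAs the sum was 0 to 18.4 CPM in LINC00673 libraries, against 9.63 to 23.7 CPM in NC. In 3 muscle miRNAs it was 34.2 to 40.6 CPM in LINC00673 libraries, against 37.2 to 73.8 CPM in NC. Most of the muscle sum was miR-206, at 36.2 ± 1.93 CPM in LINC00673 libraries, against 52.5 ± 16.9 CPM in NC (SD, n = 3 each). The 2 blood cell miRNAs measured, miR-142-3p and miR-142-5p, summed to 171 to 205 CPM in LINC00673 libraries, against 139 to 213 CPM in NC, and the liver miRNA miR-122-5p lay at 14.8 to 15.8 CPM in LINC00673 libraries, against 9.63 to 20.3 CPM in NC. The groups overlapped in each of these sums. Of the markers chosen, the blood cell miRNAs miR-150-5p, miR-223-3p and miR-451a and the neuronal miR-124-3p are not analysed here.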

How the data were processed

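The authors deposited 1 table of CPM values (reads scaled to a common library total) per mature miRNA for 6 libraries of total RNA, prepared with a NEBNext small RNA kit per the labels' protocols. The genome build named is hg38, per the submitters' processing notes. Not given in the sources used here are the aligner, the counter, the miRBase version and how shared reads were treated. Whole reads were recovered from the CPM steps (100% of values within 0.1 read). No molecular identifiers are named, so intervals and floors cover counting error only. Tests used limma 3.58.1 with an intensity trend in R 4.3.3, two-sided. Alternatives used edgeR 4.0.16 and DESeq2 1.42.0 on the recovered reads. Hairpins were folded with RNAfold 2.7.2. The scripts were tested on simulated data. Replicate pairs within groups all differed beyond sampling noise, LINC00673 replicates 2 and 3 least (chi-square per degree of freedom 2.72, against 12.6 to 55.9). Named were both arms, the oxygen list by count with its 6 most abundant or called members, the 5 miRNAs of highest correlation and the neighbours in level. Members, lists and tests were chosen with earlier results of these data known. CPM is relative, so a change in an abundant miRNA shifts the others.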

Additional observations from a re-analysis of the deposited data

How the results depend on the processing

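The log2 difference of miR-210-3p was above 0 and short of the threshold in all 20 alternatives run, between 0.30 without NC replicate 3 and 0.54 with TMM factors (adjusted p 0.28 to 0.852). The fitted difference of the 5p arm ranged from 0.66 to 3.89 over 18 alternatives and that of the arm ratio from -3.12 to -0.23 over 13. With 0 reads of the 5p arm in every NC library the first sign was fixed beforehand and the second rests on 5 reads, so neither says anything about stability. Neither could be fitted with a minimum of 10 CPM or without LINC00673 replicate 1, when the mean of the 5p arm was too low. The difference in 5p share lay between 0.92 and 1.86 percentage points when 1 library was left out, and was 1.23 with reads pooled per group. Its sign too was fixed by the 0 reads in NC, so this range says nothing about stability. Deviations from the group means correlated at 0.03, 0.07 and 0.01 between same-numbered libraries of the 2 groups. Between differently numbered ones the correlations ran from -0.07 to 0.04, so whether the replicate numbers pair the libraries was not settled. With the replicate block, the log2 differences in limma were 0.44, 1.91 and -1.47 for the 3p arm, the 5p arm and their ratio (adjusted p = 0.494, 0.401 and 0.428), and limma and edgeR passed 2 and 21 miRNAs. Over all miRNAs, limma passed 2, against 0 with a pseudocount of 0.5 CPM, a minimum of 10 CPM, quantile normalization, no intensity trend, or LINC00673 replicates 2 and 3 averaged, the last chosen after seeing the data. It passed 8 with a pseudocount of 5 CPM, 11 with no filter, 10 with a robust prior, and 0 to 28 when 1 library was left out (28 without NC replicate 3). The count was 22 in edgeR and 10 in DESeq2. Of the oxygen list, 1 passed in edgeR with or without the replicate block, and 0 to 2 when 1 library was left out. The cause was not tested. No hairpin passed in the main fit of the arm ratio or in any of its 15 alternatives. The 5p arm is limited by its 5 reads in all.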

Other observations

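The 10 miRNAs listed at 0 in every NC library and above 0 in every LINC00673 library held few reads. Summed over the LINC00673 libraries these were 11 for miR-212-5p, 10 for miR-299-5p, 7 for miR-380-5p, 6 each for miR-636 and miR-6767-5p, 5 each for miR-210-5p and miR-874-5p, and 4 each for miR-23b-5p, miR-3617-3p and miR-4428. At most 6 reads fell in 1 library, for miR-212-5p. The LINC00673 libraries together held 1885310 reads and the NC libraries 1090337.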
